A study of Mus musculus with 18 samples.

Results

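The 54 genes described here encode lysosomal enzymes, their acidifying pump and the proteins around them, and were picked by gene name from a table of 21734 protein-coding genes. They comprise 2 lysozymes, 13 cathepsins and other proteases, 9 glycosidases, 6 lipid hydrolases and activator proteins, 7 membrane proteins and progranulin, 2 transcription factors of the TFE family, 7 V0 and accessory subunits of the V-ATPase and 8 V1 subunits. Each of the 54 had a row in the table and each passed the filter on low counts that left 11357 genes for testing.

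RNA was measured in bone marrow-derived macrophages (BMDMs), which are marrow cells grown into macrophages with the growth factor M-CSF, here at 10 ng/ml for 8 to 9 days. They came from mice of a mixed 129/B6 strain, 6 to 7 months old, 3 of each genotype. The 6 libraries of a genotype therefore come from 3 mice, so resting and LPS cultures share mice. Same-numbered resting and LPS libraries of a genotype share a letter in their deposited names, but no label says that a letter is a single mouse. The main test treats the libraries as independent. Wild-type (WT) mice carry miR-146a, a microRNA that restrains Toll-like receptor signalling, KO mice lack it, and 3'F mice carry a version whose seed is kept while part of its 3′ region is exchanged with the opposite strand of the hairpin. Both mutant lines were derived from targeted embryonic stem cells. The paper states that each was backcrossed 3 times to C57BL6/J and kept as a separate colony. Effects of an allele and of its line background therefore cannot be told apart here. BMDMs of each genotype received fresh medium without LPS (resting) or with LPS, the bacterial endotoxin sensed by TLR4, at 1 ng/ml for 16 h, which gave 6 groups of 3 libraries. The comparisons ask how these genes respond to LPS in each genotype and whether they differ between the genotypes.

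Lysosomes are acidic organelles in which hydrolases break down protein, sugar chains, lipid and whole microbes. The V-ATPase pumps protons into them: its V1 sector burns ATP in the cytosol and turns the rotor of the V0 sector in the membrane. TFEB and TFE3 are transcription factors that switch on many lysosomal genes by binding short E-box motifs, and macrophages, as professional phagocytes, carry large numbers of lysosomes. LPS is known to reshape the organelle as macrophages turn from growth to defence.

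Total counts ran from 4071084 to 19818043 per library, and the 54 genes together took 8.11% to 11.5% of them. 2 libraries stood apart. Resting KO replicate 3 lay at 20.2 on the first principal component, within the range of the LPS libraries (19.3 to 76.4), whereas resting KO replicates 1 and 2 lay at −31.1 and −34.2. Resting 3'F replicate 3, the shallowest library with 4071084 counts, lay at 48.0 on the second component, where the other resting 3'F libraries lay at −3.20 and −4.54. Summed levels of 9 macrophage markers were 5087 to 5821 CPM (counts scaled to a common library size) in resting WT and 8822 to 11076 with LPS, while sums for dendritic cell, lymphocyte and mast cell markers stayed at or below 4.68 CPM in every library. Neutrophil marker sums were 13.9 to 68.4 CPM and osteoclast marker sums 175 to 393 CPM. Sums of 5 proliferation genes were 617 to 930 CPM in resting WT, 444 to 774 in resting 3'F and 174 to 290 in resting KO, and after LPS 266 to 526, 226 to 493 and 169 to 235. Since these are bulk samples, fewer cells of a type and less RNA per cell cannot be told apart.

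Levels among the 54 genes spanned a wide range. Per kb of gene length, Lyz2, which encodes the lysozyme of macrophages, led at 36431 CPM per kb averaged over all libraries and alone took 3.05% to 6.10% of all counts. Ctss, Ctsb, Psap and Ctsd followed, at 3606, 2479.8, 2401 and 2047 CPM per kb. Ctsb and Ctss encode the cathepsins B and S, and Psap the precursor of the saposins that present lipids to hydrolases. The lowest were Ctsf and Ctse, at 2.03 and 1.60 CPM per kb. The table gives Ctsd a length of 586 bases and Atp6v0c 465, against 2351 and 3384 exon bases in Gencode M21, so the levels per length of these 2 genes are uncertain.

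The microRNA whose gene differs between the genotypes is shown first, with its seed in capitals. Beside it is the 1 member site that matches the whole seed and has an A opposite base 1 of the microRNA. The mature strand lies on the minus strand of chr11:43374435-43374456 (GRCm38.p6, RefSeq). The site in the 3′ UTR of Lipa, the lysosomal acid lipase, has its 8 matching bases in capitals.
miR-146a-5p: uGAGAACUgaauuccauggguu
Lipa site: ccaaagtactcAGTTCTCAtccctttgcct
A match to the seed of 7 or 8 bases was present in annotated 3′ UTRs of 14 of the 54 genes (25.9%), against 22% of 11308 tested genes. Lipa also has matches of 7 bases, which are not shown. The sites of most other genes with a match are not shown either. Ctsb and Gm2a, for example, also have more than 1 site and were called in no comparison. Galc, the galactosylceramidase, has the sites below, each with its matching bases in capitals.
Galc site 1: agaaacagaccAGTTCTCcatgtgggtaa
Galc site 2: tcactccagaaAGTTCTCtgctatacctg
Neither gene was called in KO against WT by edgeR. Of the other genes with a match, only Atp6v0c was called there, lower in resting KO, and their values are not followed here. Galc stood at 182, 158 and 182 CPM in the 3 resting WT libraries and 137, 149 and 63.4 in resting KO, a log2 difference of −0.58 ± 0.21 (SE) that was not called by edgeR (adjusted p 0.107). Every resting KO library lay below every resting WT library, replicate 3 farthest, and without it the difference was −0.28 (adjusted p 0.21). With LPS Galc stood at 110.2, 101 and 99.7 CPM in WT, 60.3, 71.1 and 70.5 in KO and 74.5, 76.3 and 75.2 in 3'F, and every KO and 3'F library lay below every WT library. Such separation is not particular to Galc. With LPS every KO library also lay below every WT library for Cd68 (adjusted p 0.662) and Atp6v1g1 (0.868), which were far from a call. For Galc the log2 difference from WT was −0.62 ± 0.22 in KO (adjusted p 0.11) and −0.46 ± 0.21 in 3'F, neither of them called. Without the 2 libraries that stood apart that in KO was −0.64 (adjusted p 0.000183). Both of those are resting libraries, so the same LPS libraries were compared. What was refitted is the estimate of spread, which all groups share. With LPS Lipa stood at 1286, 1303 and 1303 CPM in WT and 876, 1167 and 999.9 in KO, and the log2 difference of −0.35 ± 0.12 was not called either (adjusted p 0.0942).

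Promoters are shown for genes whose window holds the E-box CACGTG, the core of the sites that TFEB and TFE3 bind. RefSeq promoter windows (GRCm38.p6, 250 bases before to 50 after the start) were found for 45 of the 54 genes. The E-box, which reads the same on both strands, was present in 13 of the 45 (28.9%), in 12% of 8999 tested genes and in 8.09% of 27025 genes of the table. The same E-box with GT before it and AC after it, an exact form of the CLEAR element that TFEB prefers, was present in 0 of the 45 genes. It was present in 0.37% of all 27025 and in 0.845% of tested genes. Sites that depart from this exact form were not counted. At such low shares 0 of 45 does not show that these genes lack the element. Lamp1, which encodes a major glycoprotein of the lysosomal membrane, has 4 E-boxes, at offsets of −61, −45, −28 and −15 bases from its start. Mcoln1, a lysosomal calcium channel, and Ctsd, the aspartic protease cathepsin D, have 2 each, and Atp6v1a, the catalytic A subunit of V1, has 1. The E-box is in capitals.
Lamp1, chr8:13159090-13159115, plus strand: ggcaagatatCACGTGgtccagcgcc
Lamp1, chr8:13159106-13159131, plus strand: gtccagcgccCACGTGatgccgactg
Lamp1, chr8:13159123-13159148, plus strand: tgccgactggCACGTGaccacatcac
Lamp1, chr8:13159136-13159161, plus strand: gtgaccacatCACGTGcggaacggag
Mcoln1, chr8:3500438-3500463, plus strand: tcgcgcttgtCACGTGttcagttcag
Mcoln1, chr8:3500464-3500489, plus strand: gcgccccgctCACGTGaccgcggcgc
Ctsd, chr7:142387910-142387935, minus strand: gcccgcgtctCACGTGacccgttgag
Atp6v1a, chr16:44139375-44139400, minus strand: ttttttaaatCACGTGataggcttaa
Of the 13 genes with an E-box, 6 were lower with LPS in at least 1 genotype, 0 were higher and 7 were not called. Of the 32 genes whose window lacks it, 9 were lower, 6 higher and 17 not called. As shares, 46.2% of the genes with an E-box were lower and 0% higher, against 28.1% and 18.8% of those without. Of all tested genes counted the same way, 21.8% of the 1079 with an E-box were lower and 22.4% higher, and of the 7920 without it 20% were lower and 23.5% higher. A match is a description of these windows, and no test of the difference was made.

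With LPS, Ctsc rose and the V-ATPase subunit genes Atp6v0d2 and Atp6v0a1 fell in every genotype, while the set as a whole moved little. In WT, 17 of the 54 genes passed the edgeR test, 5 higher and 12 lower, which is 31.5% against 28.4% of all genes tested (16.2% higher and 12.2% lower). In KO 18 passed, 4 higher and 14 lower (33.3% against 26.8% of all genes, 14.2% higher and 12.6% lower). In 3'F 17 passed, 7 higher and 10 lower (31.5% against 31.2%, 17.2% higher and 14.1% lower). The total shares lie close to those of all genes. By direction, 22.2% of the 54 genes were lower and 9.26% higher in WT, 25.9% and 7.41% in KO and 18.5% and 13% in 3'F, so the calls leaned lower than those of all genes. The macrophage marker sums were higher and the proliferation sums of WT lower with LPS, at the values given above, and their part in these changes was not tested. The median log2 change of the 54 genes was −0.06 in WT, −0.09 in KO and −0.07 in 3'F, where the medians of all genes tested were 0.02, 0.02 and −0.01. 12 genes (22.2%, against 16.1% of all genes) passed in all 3 genotypes, namely Ctsc, Ctsz, Neu1 and Atp6v1e1, which were higher, and Ctsd, Gla, Gusb, Galc, Atp6v0a1, Atp6v0d2, Atp6v1a and Atp6v1c1, which were lower. 24 passed in at least 1 genotype (44.4%, against 43.7% of all genes), 30 in none, and no gene passed in opposite directions. Scaled to total counts alone, the called genes split into 4 higher and 17 lower in WT, 3 and 25 in KO and 6 and 19 in 3'F. All genes then also leaned lower, with 1091 higher and 2993 lower in WT (36% called), 793 and 3162 in KO (34.8%) and 1289 and 3023 in 3'F (38%). Without the 2 libraries that stood apart, 22 genes passed in WT (6 higher and 16 lower), 25 in KO (5 and 20) and 23 in 3'F (6 and 17), or 40.7%, 46.3% and 42.6% of the 54, where all genes gave 41.6%, 44% and 34.9%. This setting leaves out no WT library.

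**Figure D1:**
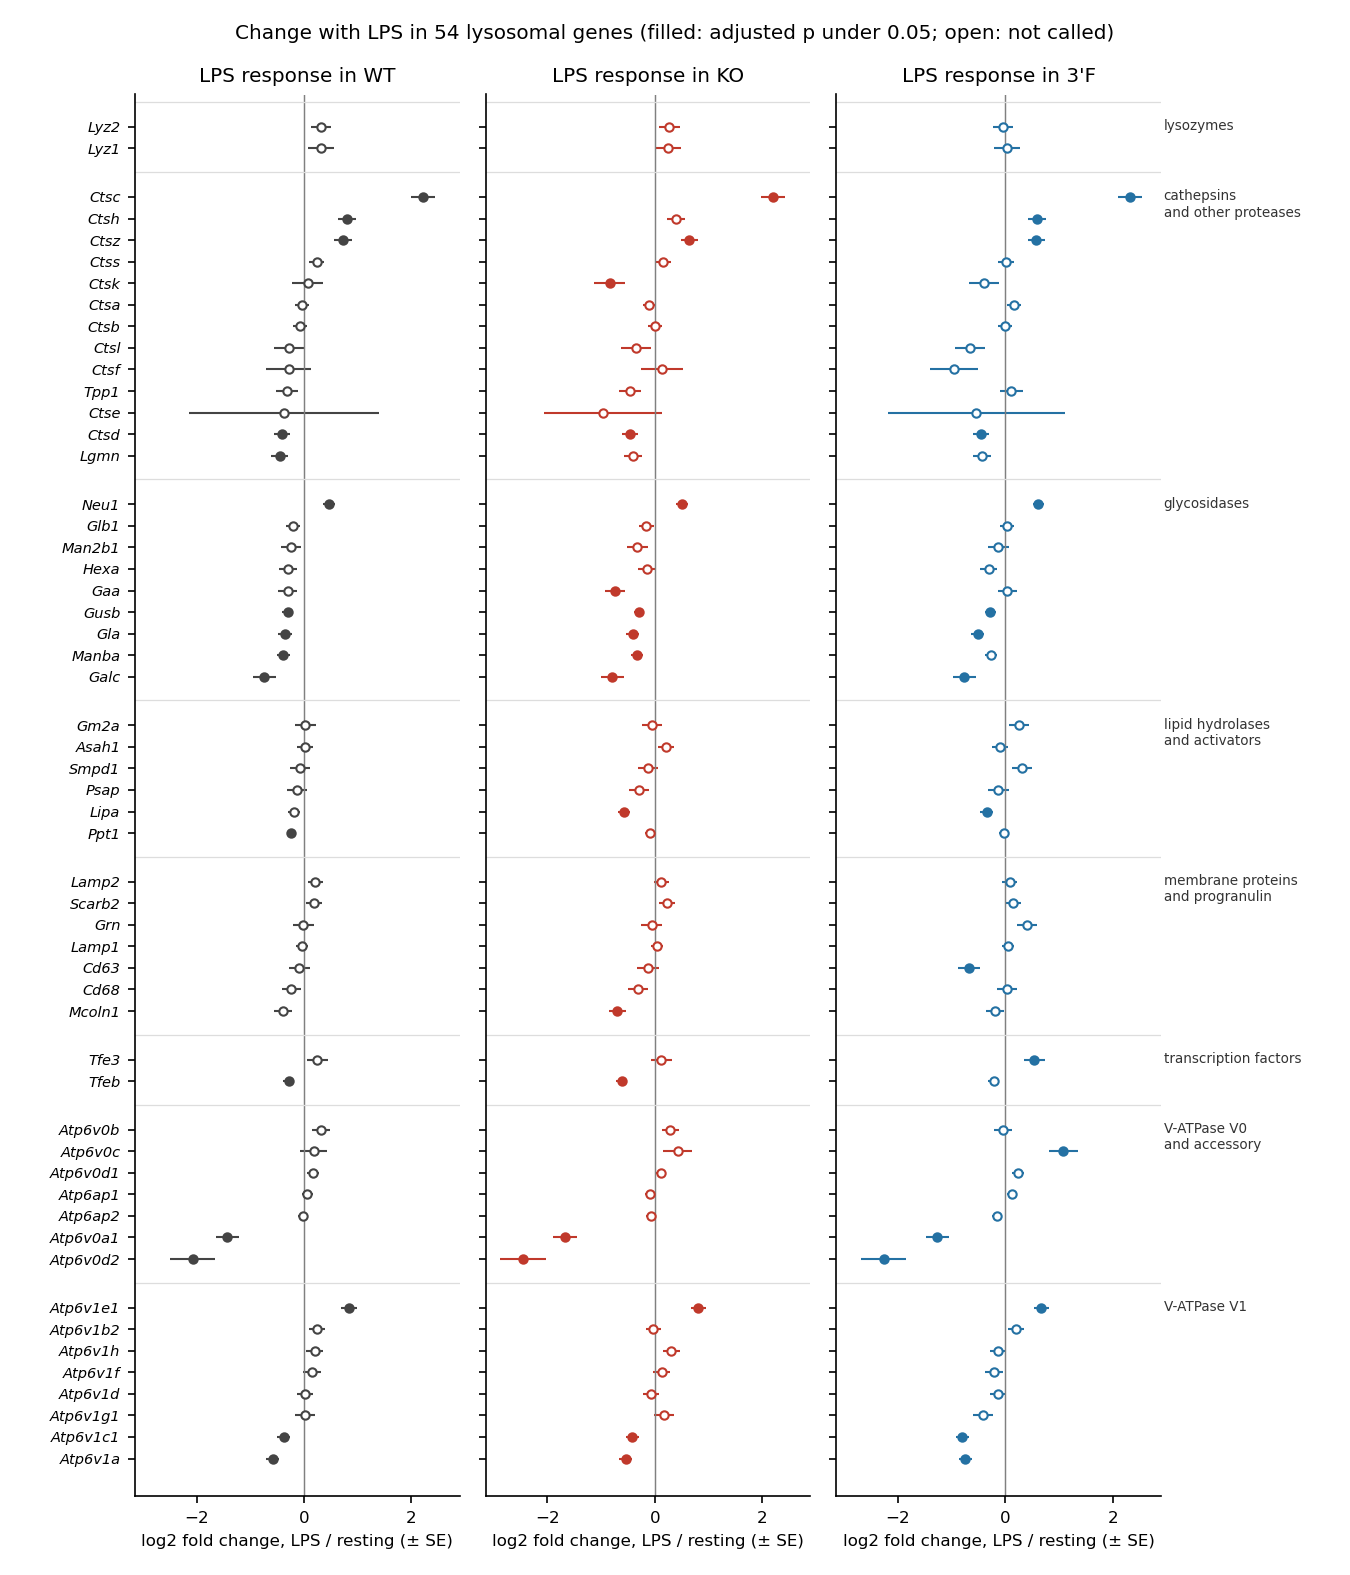
Log2 fold change with LPS against resting (x axis, ± SE) of each of the 54 genes, grouped by role, in WT, KO and 3'F BMDMs (3 libraries a group). Filled points passed the edgeR test at an adjusted p under 0.05. Ctsc lies above 2 and Atp6v0d2 below −2 in all 3 panels, and 37 of the 54 points in the WT panel are open.

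The lysozymes did not pass the test with LPS. Lyz2 stood at 42604, 26461 and 36405 CPM in resting WT and 45797, 36686 and 49032 with LPS, and the groups overlapped. Its log2 change was 0.32 ± 0.19 in WT (adjusted p 0.236), 0.27 ± 0.19 in KO (0.321) and −0.05 ± 0.19 in 3'F (0.87). Lyz1, the lysozyme of intestinal Paneth cells, stood at 37.2, 19.5 and 38.1 CPM in resting WT and 39.3, 29.8 and 48.7 with LPS, again with overlap. Its log2 change was 0.32 ± 0.25 in WT (adjusted p 0.374), 0.26 ± 0.24 in KO (0.473) and 0.03 ± 0.25 in 3'F (0.941).

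Among the 13 proteases, 5 passed in WT, 3 higher and 2 lower, where 28.4% of all genes passed. Ctsc (chromosome 7, 88278085 to 88310888, GRCm38) encodes cathepsin C, the dipeptidyl peptidase that activates granule serine proteases, and it had the largest rise of the 54 genes in each genotype. It stood at 208, 230.0 and 259 CPM in resting WT and at 1053, 743 and 1443 CPM with LPS. In KO the values went from 379.6, 355 and 553 to 1856, 2258 and 1792 CPM, and in 3'F from 227, 228 and 167 to 947, 1181 and 988 CPM. Every LPS library lay above every resting library of its genotype. The log2 change was 2.22 ± 0.23 in WT, a 4.65-fold rise (adjusted p 2.5e-06), 2.20 ± 0.23 in KO (2.09e-06) and 2.32 ± 0.23 in 3'F (1.5e-06).

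Ctsh and Ctsz, which encode the aminopeptidase cathepsin H and the carboxypeptidase cathepsin Z, rose less. Ctsh stood at 105, 82.6 and 101 CPM in resting WT and 172, 135 and 196 with LPS, a log2 change of 0.80 ± 0.17 (adjusted p 0.00223). In 3'F it also rose, from 98.1, 122 and 119 to 159, 193 and 158 CPM, by 0.59 ± 0.17 (0.0143). In KO its change of 0.40 ± 0.17 was not called (0.0923), and resting KO replicate 3, at 207 CPM, lay among the LPS values. Without that library the change in KO was 0.58 (adjusted p 0.0126). Ctsz rose by 0.73 ± 0.16 in WT (adjusted p 0.00301), from 1609, 1185 and 1207 to 2229, 2024 and 2371 CPM, by 0.65 ± 0.16 in KO (0.0065) and by 0.58 ± 0.16 in 3'F (0.0122). Its KO values went from 1373, 1382 and 2046 to 2383, 2728 and 2409 CPM.

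Ctsd and Lgmn fell in WT. Lgmn encodes legumain, which cleaves proteins after asparagine. Ctsd stood at 1543, 1376 and 1312 CPM in resting WT and 1062, 1001 and 1109 with LPS. In KO it went from 1305, 1416 and 978 to 857, 999 and 841 CPM and in 3'F from 1369, 1762 and 1373 to 958, 1151 and 1181 CPM. The groups did not overlap in WT. Its log2 change was −0.42 ± 0.15 in WT (adjusted p 0.0439), −0.46 ± 0.15 in KO (0.0296) and −0.45 ± 0.15 in 3'F (0.0277). The call in WT was lost when any 1 of the 6 WT libraries was left out, with a log2 change between −0.35 and −0.67 over all settings tried. Lgmn changed by −0.45 ± 0.16 in WT (adjusted p 0.0455) and by −0.40 and −0.43 in KO and 3'F, where it was not called (0.0785 and 0.0531). Its call in WT was lost under 7 of 15 alternatives, among them each of the 6 that leave out 1 WT library.

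Ctsk, the collagen-cutting cathepsin K of osteoclasts, gave different values by genotype. It stood at 241, 191 and 196 CPM in resting WT and 223, 199 and 234 with LPS, with overlap, a log2 change of 0.07 ± 0.28 (adjusted p 0.898). In KO it was called lower, at −0.84 ± 0.29 (0.039), from 171, 195 and 468 to 159, 184 and 123 CPM. The resting KO value rests on replicate 3, and without it the change was −0.24 (adjusted p 0.318). In 3'F Ctsk went from 215, 230.2 and 284 to 188, 211 and 154 CPM, a change of −0.40 ± 0.28 that was not called (0.305). Of the other proteases, the endopeptidases Ctsb, Ctss and Ctsl and the carboxypeptidase Ctsa gave small values: in WT the log2 changes were −0.08 ± 0.13 for Ctsb, 0.24 ± 0.14 for Ctss, −0.29 ± 0.28 for Ctsl and −0.04 ± 0.13 for Ctsa, and none of them was called in any comparison.

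**Figure D2:**
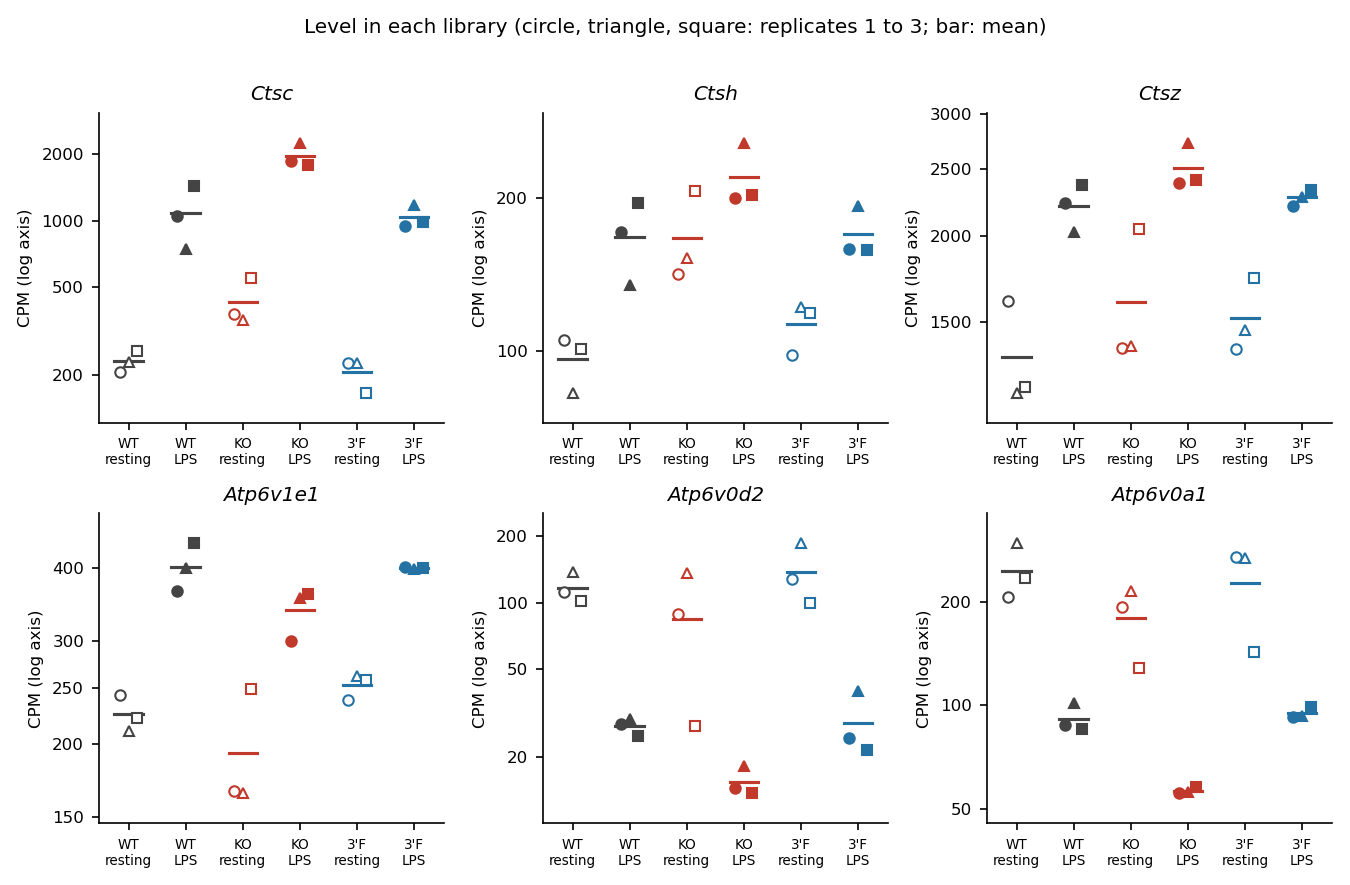
Levels in CPM (log axis) in each of the 18 libraries for 6 genes that LPS moved. Open symbols are resting and filled symbols LPS libraries, and bars are means of 3. Ctsc rises in each genotype, Atp6v0d2 and Atp6v0a1 fall, and resting KO replicate 3 (open red square) lies nearer the LPS values for several genes.

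Of the 9 glycosidases, which strip sugars from glycoproteins and glycolipids, 5 passed in WT, 1 higher and 4 lower, where 28.4% of all genes passed. Neu1, the lysosomal sialidase, was the one that rose, from 115, 107 and 111 to 158, 146 and 156 CPM in WT, from 113, 105 and 148 to 169, 176 and 176 in KO and from 102, 107 and 95.0 to 157, 157 and 152 in 3'F. The groups did not overlap in any genotype. Its log2 changes were 0.47 ± 0.11 (adjusted p 0.00417), 0.51 ± 0.11 (0.00225) and 0.62 ± 0.11 (0.000509). Galc, which breaks down galactosylceramide, had the largest fall of these enzymes in WT, a log2 change of −0.74 ± 0.21 (adjusted p 0.0157), from 182, 158 and 182 to 110.2, 101 and 99.7 CPM. It changed by −0.79 in KO, to 60.3, 71.1 and 70.5 CPM, and by −0.77 in 3'F, from 148, 131 and 104 to 74.5, 76.3 and 75.2 CPM, both called. Gla, the alpha-galactosidase, was called lower in all 3 genotypes, with log2 changes of −0.36, −0.41 and −0.52, as was Gusb, the beta-glucuronidase, with −0.31, −0.29 and −0.28. The Gusb call was lost under 7 of 15 alternatives in each genotype and the Gla call in WT under 6, the replicate block among them in every case. Manba, the beta-mannosidase, was called lower in WT (−0.38) and KO (−0.34), a call lost under 3 and 8 of 15 alternatives. Gaa, the acid glucosidase that degrades glycogen, was called lower in KO, at −0.74 ± 0.18 (adjusted p 0.00549), and changed by −0.30 ± 0.18 in WT (0.226). Hexa, Glb1 and Man2b1 were called in no comparison.

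Of the 6 lipid hydrolases and activators, 1 passed in each genotype, where 28.4%, 26.8% and 31.2% of all genes passed in WT, KO and 3'F. In WT it was Ppt1, a thioesterase that removes palmitate from proteins, at −0.24 ± 0.09 (adjusted p 0.0454), a call lost under 8 of 15 alternatives, including each that leaves out 1 WT library. In KO and 3'F it was Lipa, at −0.57 ± 0.12 (0.00154) and −0.35 ± 0.12 (0.0323). The KO call held under all 15 alternatives and the 3'F call was lost under 6. Lipa stood at 1409.6, 1609.7 and 1511 CPM in resting KO and 876, 1167 and 999.9 with LPS, without overlap, and at 1531, 1449.9 and 1457 and 1286, 1303 and 1303 in WT, where the change of −0.19 ± 0.12 was not called (0.249). Whether KO and WT differ in this response was tested as an interaction, which was −0.38 ± 0.17 (adjusted p 0.962). Psap, Gm2a, Asah1 and Smpd1 were called in no comparison.

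The membrane proteins and progranulin did not pass in WT (0 of 7 by edgeR, with 1 at an unadjusted p under 0.05), where 28.4% of all genes passed. Lamp1 stood at 2744, 2378 and 2381 CPM in resting WT and 2559.9, 2186 and 2563 with LPS, a log2 change of −0.04 ± 0.11 with a 95% interval of −0.26 to 0.18. In KO it went from 2509, 2532 and 2395 to 2422, 2720.3 and 2534 CPM and in 3'F from 2424, 2473 and 2055 to 2500.4, 2479 and 2239.6 CPM, with changes of 0.05 ± 0.11 and 0.05 ± 0.11. Cd68, macrosialin, used widely as a macrophage marker, stood at 765, 1138 and 906 CPM in resting WT and 850.1, 773 and 764 with LPS, and its change of −0.24 ± 0.18 was not called (adjusted p 0.365). It went from 892, 878 and 830.0 to 695, 729 and 669 CPM in KO and from 944, 1007 and 544 to 794, 847 and 909 in 3'F, and was called in neither. Grn, which encodes progranulin, a secreted and lysosomal growth factor precursor, stood at 899, 1344 and 1171 and 1252, 946 and 1179.9 CPM, a change of −0.02 ± 0.19 (0.968). It went from 1141, 1126 and 1401 to 1208, 1216 and 1107 CPM in KO and from 1118, 999 and 605 to 1238, 1242 and 1126 in 3'F, again with no call. Mcoln1 was called lower in KO, at −0.70 ± 0.17 (adjusted p 0.00477), from 37.5, 37.8 and 37.7 to 19.3, 26.4 and 24.2 CPM, and changed by −0.40 ± 0.16 in WT (0.0823). Cd63, a tetraspanin of late endosomes, was called lower in 3'F, at −0.68 ± 0.20 (0.017). That call rests on resting 3'F replicate 3, at 1065 CPM against 534 and 658 in the other resting 3'F libraries, and was lost without that library.

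Of the transcription factors, Tfeb fell in WT and KO and Tfe3 rose in 3'F. Tfeb stood at 47.0, 43.5 and 34.8 CPM in resting WT and 35.8, 34.0 and 33.1 with LPS, where the groups overlapped by 1 library. Its log2 change was −0.29 ± 0.10 in WT (adjusted p 0.0455), −0.62 ± 0.10 in KO (0.00029) and −0.21 ± 0.10 in 3'F (0.124). In KO it went from 44.5, 45.9 and 47.6 to 29.5, 29.8 and 30.7 CPM without overlap, and in 3'F from 42.1, 44.3 and 40.5 to 38.0, 36.5 and 34.9 CPM. The call in WT was lost under 9 of 15 alternatives and that in KO under none. The interaction of KO with WT was −0.33 ± 0.14 (adjusted p 0.967), which was not called. Tfe3 stood at 52.2, 71.4 and 71.2 CPM in resting WT and 85.8, 74.0 and 71.0 with LPS, with overlap, a change of 0.25 ± 0.19 (0.381). In KO it went from 93.8, 85.6 and 66.8 to 84.4, 99.8 and 83.6 CPM and was not called. In 3'F it went from 71.8, 67.3 and 36.8 to 87.5, 87.8 and 83.4 CPM and was called higher, by 0.54 ± 0.20 (0.0455). That call was lost under 9 of 15 alternatives, among them without resting 3'F replicate 3, the lowest at 36.8 CPM.

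The V-ATPase held the largest fall of the 54 genes. Atp6v0d2 (chromosome 4, 19876841 to 19922605) encodes the d2 form of the V0 d subunit, known from osteoclasts and macrophages, and Atp6v0d1 the form present in most cells. Atp6v0d2 stood at 111, 137 and 101 CPM in resting WT and at 28.1, 29.8 and 25.0 with LPS. In KO it went from 88.6, 137 and 27.7 to 14.5, 18.2 and 13.7 CPM and in 3'F from 127, 185 and 99.7 to 24.3, 39.8 and 21.5 CPM. No LPS library overlapped the resting libraries of its genotype. The log2 change was −2.08 ± 0.42 in WT (adjusted p 0.00199), −2.45 ± 0.43 in KO (0.000638) and −2.26 ± 0.42 in 3'F (0.00106). Resting KO replicate 3, at 27.7 CPM, lay far below the other 2 resting KO libraries, and without it the change in KO was −2.87 (adjusted p 1.06e-06). Atp6v0d1 changed by 0.17 ± 0.11 in WT and was called in no comparison.

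Per kb of gene length, the ratio of Atp6v0d2 to Atp6v0d1 was 0.415 to 0.473 in resting WT and 0.0858 to 0.0968 with LPS. It was 0.452 to 0.700 in resting 3'F and 0.0670 to 0.135 with LPS. In resting KO replicates 1 and 2 it was 0.347 and 0.566, in replicate 3 0.0955, and with LPS 0.0512 to 0.0607.

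Atp6v0a1, the a1 form of the V0 a subunit, also fell. It went from 206, 297 and 235 CPM in resting WT to 87.4, 101 and 85.1 with LPS, from 193, 216 and 129 to 55.4, 55.8 and 57.8 in KO and from 271, 269 and 144 to 92.7, 93.4 and 98.8 in 3'F, with no overlap in any genotype. The log2 change was −1.43 ± 0.22 in WT (adjusted p 0.000123), −1.67 ± 0.22 in KO (2.64e-05) and −1.27 ± 0.21 in 3'F (0.000341). Tcirg1, outside the 54 genes, encodes the a3 form of the same subunit, which osteoclasts use. It was called higher in WT, by 0.63 ± 0.17 (0.0117), and in 3'F, by 0.81 ± 0.17 (0.00228), and was not called in KO, at 0.25 ± 0.17 (0.305). In KO it went from 477, 499 and 753 to 632, 774 and 654 CPM. Resting KO replicate 3, at 753 CPM, lay among the LPS values. The ratio of Atp6v0a1 to Tcirg1 per kb went from between 0.440 and 0.623 in resting WT to between 0.109 and 0.161 with LPS. Tcirg1 was named after its values had been seen.

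**Figure D3:**
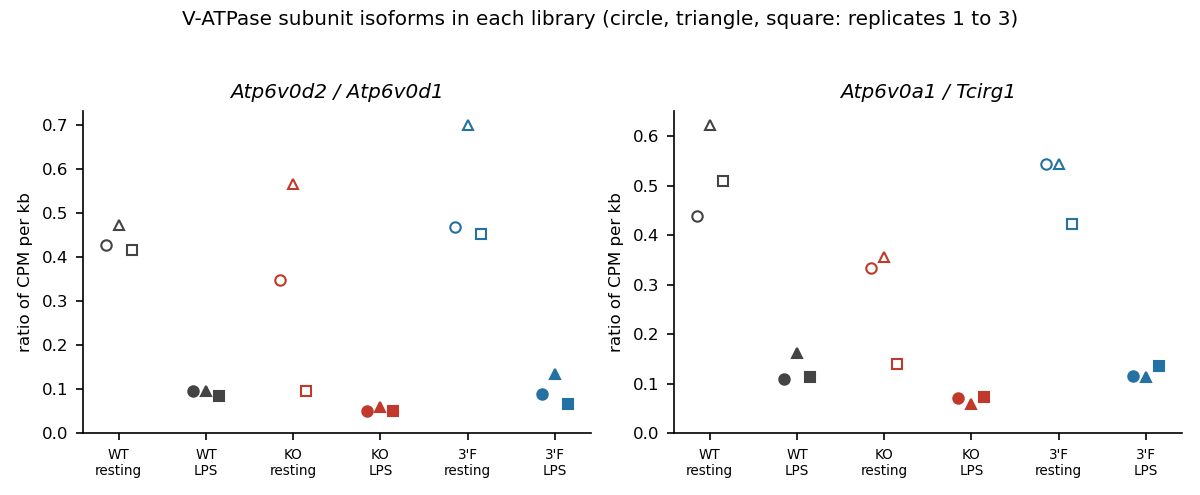
Ratio of CPM per kb of gene length (y axis, from 0) of Atp6v0d2 to Atp6v0d1 and of Atp6v0a1 to Tcirg1 in each library, 3 per group. Both ratios are at or below 0.161 in every LPS library, and resting KO replicate 3 (open red square) lies at 0.0955 and 0.141, near those libraries.

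In the V1 sector, 3 of 8 subunits passed in each genotype, where 28.4%, 26.8% and 31.2% of all genes passed in WT, KO and 3'F. Atp6v1a stood at 1494, 1219 and 1136 CPM in resting WT and 797, 894 and 877 with LPS, without overlap. Its log2 change was −0.58 ± 0.12 in WT (adjusted p 0.00207), −0.54 ± 0.12 in KO (0.00344) and −0.74 ± 0.12 in 3'F (0.000283). Atp6v1c1, the C subunit that helps hold the sectors together, changed by −0.38 ± 0.12, −0.42 ± 0.12 and −0.80 ± 0.12 in WT, KO and 3'F, all called. Its values went from 282, 329 and 268 to 186, 252 and 237 CPM in WT and from 368, 405 and 423 to 237, 237 and 211 in 3'F. Atp6v1e1, a stalk subunit, went the other way, from 243, 211 and 222 to 366, 400.4 and 442 CPM in WT, from 166, 165 and 249 to 301, 355 and 361 in KO and from 238, 261 and 258 to 403, 398 and 401 in 3'F. Its log2 change was 0.84 ± 0.14 (0.000347), 0.81 ± 0.14 (0.000404) and 0.67 ± 0.14 (0.00195). Subunits of the same enzyme thus moved in both directions. Atp6v1b2, Atp6v1d, Atp6v1f and Atp6v1h were called in no comparison, and neither were the V0 subunit Atp6v0b and the accessory subunits Atp6ap1 and Atp6ap2.

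Atp6v0c, which encodes the proteolipid ring of V0, was called higher in 3'F, by 1.08 ± 0.27 (adjusted p 0.00602), from 13.4, 11.8 and 5.62 to 21.7, 20.7 and 26.7 CPM. In WT it stood at 12.3, 29.1 and 18.5 and 24.2, 21.9 and 21.6 CPM, with overlap. The interaction of 3'F with WT was 0.90 ± 0.37 (adjusted p 0.978). Its counts are uncertain, because 27.06% of its 50-base stretches occur in another annotated gene, mostly the pseudogene Atp6v0c-ps2, and reads were kept only at a mapping quality of at least 50.

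No gene of the 54 had an LPS response that differed between genotypes by test. The interaction of KO with WT and that of 3'F with WT each called 0 of the 54 genes, against 0.00881% and 0% of all genes, and DESeq2 and limma-voom called 0 as well. At an unadjusted p under 0.05 there were 3 genes for KO, namely Ctsk, Lipa and Tfeb, and 2 for 3'F, Atp6v0c and Atp6v1c1.

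In KO, the lysozyme gene Lyz1, Ctsc and Scarb2 were higher than in WT in both states. In resting BMDMs 6 of the 54 genes passed, 4 higher (Lyz1, Ctsc, Ctsh and Scarb2) and 2 lower (Gusb and Atp6v0c), which is 11.1% against 8.99% of all genes tested (4.85% higher and 4.14% lower). With LPS 3 passed, all higher (5.56% against 4.83% of all genes, 1.93% higher and 2.9% lower). Both totals lie near those of all genes. Without the 2 libraries that stood apart, 10 genes passed in resting cells (7 higher and 3 lower) and 15 with LPS (6 higher and 9 lower). These are 18.5% and 27.8% of the 54, where all genes gave 14% and 13.8%. Both libraries left out are resting ones, so the comparison with LPS kept the same libraries. Its calls changed with the refitted estimate of spread that all groups share. Lyz2 was among those higher in both states, at 0.62 (adjusted p 0.0258) resting and 0.55 (adjusted p 0.0267) with LPS. Among the 9 lower with LPS were Galc, at −0.64 (adjusted p 0.000183), Atp6v0a1, at −0.72 (adjusted p 0.000541), Lipa, at −0.37 (adjusted p 0.0186), and Atp6v0d2, at −0.86 (adjusted p 0.0368).

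Lyz1 (chromosome 10, 117287797 to 117292868) lies beside Lyz2 (chromosome 10, 117277331 to 117282321) on the same strand. Lyz1 stood at 64.8, 67.9 and 61.6 CPM in resting KO against 37.2, 19.5 and 38.1 in WT, and with LPS at 64.1, 90.7 and 77.2 against 39.3, 29.8 and 48.7. Every KO library lay above every WT library, while 3'F stood at 30.7, 40.1 and 52.0 CPM resting and 36.9, 50.3 and 36.0 with LPS. The log2 difference was 1.04 ± 0.25 resting (adjusted p 0.0159) and 0.98 ± 0.24 with LPS (0.0311). Each call was lost without WT replicate 2 of the same state, where 0 of the 54 genes passed. Lyz1 was not called in resting KO against 3'F. Lyz2 stood at 53039, 53319.8 and 55434 CPM in resting KO and 59338, 75160.2 and 60769.7 with LPS, also above every WT library of the same state. In 3'F it stood at 37128, 42029 and 57546 CPM resting and 42382, 49749 and 40103 with LPS. Its differences of 0.62 ± 0.19 (0.054) and 0.57 ± 0.19 (0.0997) were not called. Separation of all libraries with LPS was also seen for genes far from a call, as given above for Cd68. Reads assigned to Lyz1 numbered 0.737 to 1.05 per 1000 of Lyz2 in WT, 0.827 to 1.01 in 3'F and 1.08 to 1.27 in KO. The 2 genes share 16.06% of the 50-base stretches of Lyz1, and the part of Lyz2 reads in the Lyz1 values was not tested.

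Ctsc was higher in KO in both states. The resting KO values of 379.6, 355 and 553 CPM lay above the WT values of 208, 230.0 and 259, and the LPS values of 1856, 2258 and 1792 above those of 1053, 743 and 1443. The log2 difference was 0.89 ± 0.22 resting (adjusted p 0.0182) and 0.87 ± 0.22 with LPS (0.0308). Without resting KO replicate 3, the highest at 553 CPM, the resting difference was 0.66 (adjusted p 0.0763). Without both libraries that stood apart it was 0.68 (adjusted p 0.0337). Scarb2, the receptor that carries glucocerebrosidase to lysosomes, stood at 351, 342 and 401 CPM against 254, 249 and 268 resting and at 379.8, 485 and 420.1 against 276, 224 and 376 with LPS. Its differences were 0.51 ± 0.15 (0.0436) and 0.55 ± 0.15 (0.0432), and the calls were lost under 10 and 7 of 15 alternatives. The Ctsc call with LPS was lost under 6 of 15, among them each of the 3 that leave out 1 KO library with LPS and the fit of only the groups compared.

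Ctsh was higher in resting KO, at 142, 153 and 207 CPM against 105, 82.6 and 101, a difference of 0.80 ± 0.17 (adjusted p 0.00892). With LPS its difference of 0.40 ± 0.17 was not called (0.22). Gusb was lower in resting KO, at 574, 625 and 592 CPM against 798, 744 and 758, a difference of −0.36 ± 0.10 (0.0361). Without resting KO replicate 3 it was −0.35 (adjusted p 0.0672). With LPS it stood at 439, 514 and 508 against 551, 658 and 650.4, a difference of −0.35 ± 0.10 that was not called (0.0602). Atp6v0c was lower in resting KO, at 10.3, 9.33 and 10.6 CPM against 12.3, 29.1 and 18.5, a difference of −0.99 ± 0.27 (0.0298) with the uncertainty given above. Without resting KO replicate 3 it was −1.02 (adjusted p 0.0534). The macrophage marker sum was also higher in resting KO, 6469.8 to 7759 CPM against 5087 to 5821 in WT, and the proliferation sum lower, 174 to 290.4 CPM against 617 to 930.4. Their part in these differences was not tested.

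**Figure D4:**
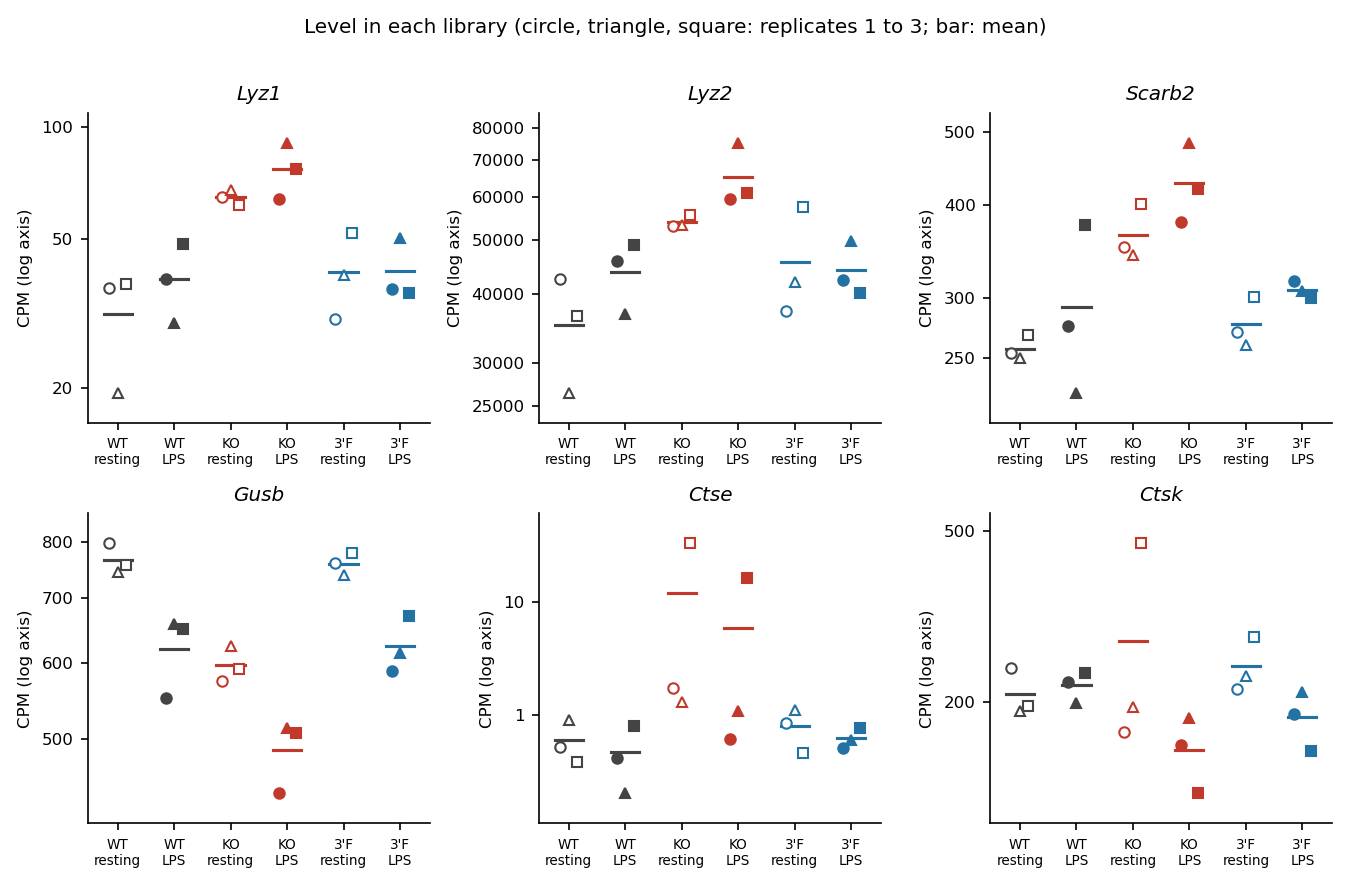
Levels in CPM (log axis) in each of the 18 libraries for 6 genes, with open symbols for resting and filled symbols for LPS libraries and bars for means of 3. All KO libraries lie above all WT libraries of the same state for Lyz1 and Lyz2, and Ctse is high in KO replicate 3 of both states.

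Ctse, the aspartic protease cathepsin E, had the largest fitted difference between KO and WT and was not called. It had 8, 12 and 4 counts in resting WT and 28, 17 and 292 in resting KO, and with LPS 6, 3 and 11 in WT and 9, 15 and 225 in KO. In CPM, KO replicate 3 stood at 32.8 resting and 16.0 with LPS, while the other 16 libraries stood between 0.205 and 1.73. The fitted log2 differences of 4.21 ± 1.39 (adjusted p 0.0768) and 3.62 ± 1.43 (0.184) thus rest on KO replicate 3, and without resting KO replicate 3 the resting difference was 1.30 (adjusted p 0.568). Ctsk had the same library as its highest, at 468 CPM against 171 and 195 in the other resting KO libraries. With LPS, Ctsk in KO replicate 3 was the lowest of the KO values, at 123 CPM.

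The 3'F allele gave no call. Against WT, 0 of the 54 genes passed in resting cells and 0 with LPS, against 0.00881% of all genes in each state, by edgeR, DESeq2 and limma-voom alike. At an unadjusted p under 0.05 there were 5 genes resting, Atp6v0c, Atp6v1f, Atp6v0b, Atp6v1c1 and Cd63, and 1 with LPS, Galc. For the genes called in KO, the 3'F values in resting cells were 0.36 ± 0.25 for Lyz1, −0.16 ± 0.22 for Ctsc, 0.23 ± 0.17 for Ctsh, 0.11 ± 0.15 for Scarb2, −0.01 ± 0.10 for Gusb and −0.88 ± 0.27 for Atp6v0c. The Atp6v0c value, of the same sign as in KO, came from overlapping groups (adjusted p 0.846), with 238, 204 and 24 counts in the resting 3'F libraries. With LPS they were 0.07 ± 0.24 for Lyz1, −0.06 ± 0.22 for Ctsc and 0.08 ± 0.15 for Scarb2. The 95% interval of Ctsc in 3'F against WT with LPS was −0.48 to 0.37 and that of Lyz1 −0.41 to 0.55. These leave out the KO estimates of 0.87 and 0.98 but hold differences of up to 0.37 and 0.55. The KO intervals were 0.44 to 1.29 for Ctsc and 0.50 to 1.46 for Lyz1, and those of Lyz1 in KO and 3'F overlap. Both comparisons use the same WT libraries.

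**Figure D5:**
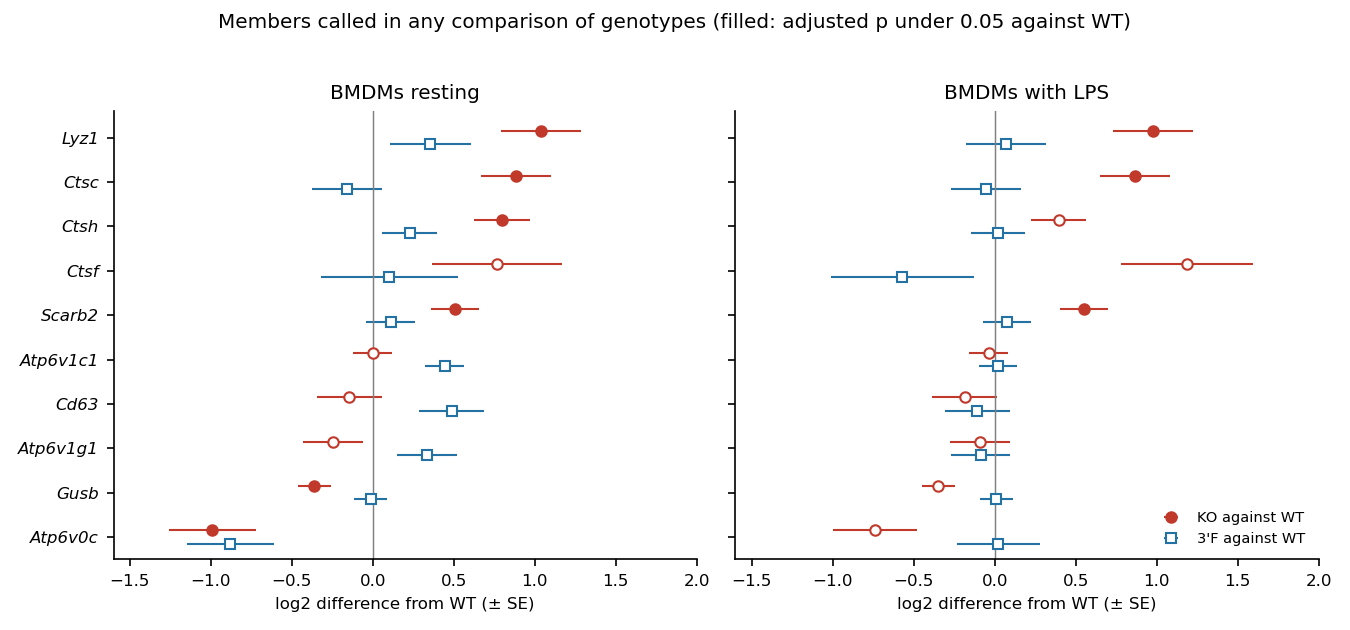
Log2 difference from WT (x axis, ± SE) in resting BMDMs and with LPS for the 10 genes called in any comparison of genotypes, with KO as red circles and 3'F as blue squares. Filled symbols passed against WT, and none of the 3'F symbols is filled.

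Set against 3'F, 6 of the 54 genes passed in resting KO cells, 2 higher and 4 lower (11.1% against 12.7% of all genes, 6.62% higher and 6.03% lower). With LPS 3 passed, all higher (5.56% against 3.86% of all genes, 1.51% higher and 2.35% lower). These comparisons share the KO libraries with those against WT. In resting cells Ctsc was higher by 1.05 ± 0.22 (adjusted p 0.00942) and Ctsh by 0.57 ± 0.17 (0.0387). Cd63, Gusb, Atp6v1c1 and the stalk subunit Atp6v1g1 were lower, with differences of −0.63, −0.35, −0.45 and −0.58. Cd63 stood at 497, 539 and 421 CPM in resting KO and 534, 658 and 1065 in 3'F. Atp6v1c1 stood at 297, 312 and 269 and 368, 405 and 423 CPM, and Atp6v1g1 at 131, 153 and 148 and 163, 177 and 309 CPM. Without resting KO replicate 3 and resting 3'F replicate 3, none of these 6 genes passed, and 1 other did, Atp6v1e1, at −0.57 (adjusted p 0.00632) (1.85%, where all genes gave 6.15%). With LPS the same setting passed 11 genes (20.4%, where all genes gave 11.7%), although it leaves out no LPS library. With LPS the genes were Lyz1, at 0.91 ± 0.24 (adjusted p 0.0495), Ctsc, at 0.92 ± 0.22 (0.0254), and Ctsf, at 1.76 ± 0.42 (0.028). Ctsf encodes the cysteine protease cathepsin F and is scarce here, with 122, 79 and 72 counts in KO with LPS and 14, 58 and 9 in 3'F. Lyz1 kept its call under 5 of 15 alternatives, and Ctsc and Ctsf under 11 each.

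Further genes of the organelle, from lists wider than the 54, were counted the same way. Of 43 further lysosomal genes tested, 19 passed in WT, 11 higher and 8 lower (44.2%, where all genes gave 28.4%). Acp5, the tartrate-resistant acid phosphatase of osteoclasts, stood at 3.68, 3.84 and 5.80 CPM in resting WT and 44.2, 27.5 and 44.8 with LPS, a rise of 3.15 ± 0.28 on the log2 scale (adjusted p 6.13e-07). Slc15a3, a lysosomal peptide transporter, and Clcn7, the chloride exchanger, rose by 2.14 ± 0.25 and 1.33 ± 0.18. Sgsh, the heparan sulfatase, changed by −1.80 ± 0.27, Tpcn1, an endolysosomal channel, by −1.25 ± 0.23 and Slc17a5, the sialic acid exporter, by −0.85 ± 0.15. Of 29 genes of sorting and nutrient sensing, 7 passed in WT, 2 higher and 5 lower, where again 28.4% of all genes passed. M6pr, a mannose 6-phosphate receptor that delivers hydrolases, rose by 0.91 ± 0.10 and Sqstm1, the autophagy receptor p62, by 0.53 ± 0.12. Rragd, a GTPase of the mTORC1 pathway, went from 15.4, 16.9 and 11.7 to 2.30, 3.07 and 1.76 CPM, a change of −2.62 ± 0.37, and Flcn and Rptor of the same pathway changed by −0.76 and −0.70.

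Of 4 protease inhibitors tested, 3 passed in WT, where 28.4% of all genes passed. Cst7 and Cstb, which encode the cysteine protease inhibitors cystatin F and cystatin B, rose by 2.56 ± 0.33 and 0.58 ± 0.15, and Serpinb6a changed by −1.18 ± 0.20. Cst7, an inhibitor of cathepsin C among others, stood at 1.12, 1.28 and 1.06 CPM in resting WT and 5.30, 5.46 and 9.82 with LPS.

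In KO against WT, 6 of the 43 further lysosomal genes passed when resting, 4 higher and 2 lower, and 3 with LPS, 1 higher and 2 lower. These are 14% and 6.98% of the 43, where all genes gave 8.99% and 4.83%. Slc15a3, the metal transporter Slc11a1 and the acid phosphatase Acp2 were higher in resting KO, by 0.99 ± 0.24, 0.72 ± 0.15 and 0.61 ± 0.16. Arsb, the arylsulfatase B, was lower in both states, at −1.17 ± 0.25 resting (adjusted p 0.00892) and −1.13 ± 0.25 with LPS (0.0172). It stood at 30.8, 54.5 and 43.9 CPM in resting WT and 17.0, 16.4 and 24.4 in resting KO. Fuca2 was lower with LPS (−0.54) and Acp5 was higher with LPS (0.96). Of the 29 genes of sorting and nutrient sensing 0 passed by edgeR in either state, with 1 resting and 2 with LPS at an unadjusted p under 0.05, and of the 4 inhibitors 0 passed, likewise with 1 and 2.

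Some counts are uncertain because sequence is shared between genes. Of the 54 genes, 38 share no 50-base stretch with another annotated gene (Gencode M21), and 7 share over 10% of theirs: Lyz1, Lyz2, Ctsd, Cd63, Atp6v0c, Atp6v1f and Atp6v1g1. Of the calls above, those of Ctsd, Cd63, Atp6v0c, Atp6v1g1 and Lyz1 carry this limit. 26 of the 54 genes, including Lyz2, Ctsb, Ctss, Lamp1, Cd68 and Grn, passed in none of the 11 comparisons.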

How the data were processed

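RNA from 18 BMDM cultures was depleted of ribosomal RNA (Ribo-Zero Gold) and made into stranded libraries. The authors trimmed reads with cutadapt 1.8.3, removed ribosomal reads, aligned the rest to mm10 with HISAT2 2.1.0 and deposited raw counts per protein-coding gene from featureCounts 1.5.3, read in the reverse-stranded setting at a mapping quality of at least 50 (Gencode M15). Reads that map to several places are lost, which lowers genes with near-identical copies. From the deposited counts, genes with enough counts in at least 1 of the 6 groups (filterByExpr, 11357 of 21734) were fitted in edgeR 4.0.16 (R 4.3.3) over all 18 libraries, with TMM scaling (factors 0.812 to 1.15) and the robust quasi-likelihood test. Calls were made at p under 0.05 after Benjamini-Hochberg adjustment across the 11357 genes. Each adjusted p printed without a tool comes from this fit. Values after ± are standard errors of a log2 difference, and its 95% interval is normal. CPM are counts per TMM-scaled library size, and levels per kb use the deposited gene length.

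The lists and the 54 genes were chosen with earlier results of these data known. Values in every library were given by rule for 10 chosen genes, for genes called between genotypes and for the 3 highest and 3 lowest called genes of each LPS response. The seed search and the fit without robust estimation were added after seeing the data. No 2 replicates agreed within sampling noise (chi-square per degree of freedom 6.95 to 109). The test was tried on counts simulated for the LPS response in WT over 11357 genes, of which 67, 67 and 66 were changed 1.5-fold, 2-fold and 4-fold. It recovered 15.6%, 65.2% and 98.5% of those that passed the filter, so small differences were often missed there. In the data 28.4% of genes were called in this response. With so many calls the adjustment is less strict, so these rates do not carry over to it. The labels give 3 mice of each genotype for 6 libraries. Same-numbered libraries of a genotype share a letter (A, B or C). In the small RNA data of the paper such letters mark biological replicates of BMDM cultures. No label states that a letter is a single mouse. The main fit did not pair these libraries, so p-values measure the spread between libraries taken as independent. Alternatives tried were DESeq2 1.42.0, limma-voom (3.58.1), other scaling, no filter, fits of only the groups compared, a replicate block and leaving out libraries. Promoters and miRNA sequences come from RefSeq (GRCm38.p6), and 3′ UTRs, exons and shared 50-base stretches from Gencode M21 (GRCm38).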

Additional observations from a re-analysis of the deposited data

Results flagged for a closer look

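Atp6ap1, an accessory subunit of the V-ATPase, was picked out because its libraries moved opposite ways with LPS in WT and KO. In WT the resting libraries stood at 439, 443 and 422 CPM and the LPS libraries at 457, 445 and 459.9 CPM, all above the resting values. In KO they stood at 462, 469 and 462 CPM resting and 427, 456 and 431 CPM with LPS, all below. The difference between the 2 responses was −0.15 ± 0.14 on the log2 scale and was not called by edgeR (unadjusted p 0.305, adjusted p 0.9999). Each response by itself was small, 0.06 ± 0.10 in WT and −0.08 ± 0.10 in KO.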

How the results depend on the processing

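Of 70 called values of the 54 genes, 28 kept their call under every alternative, 42 lost it under at least 1 and none changed sign. Numbers of called genes moved by over 1.5 times as follows. Scaling to total counts without factors gave 28 for LPS in KO (3 higher and 25 lower), 7 for KO against WT with LPS and 5 for KO against 3'F with LPS. This scaling moves the median of all genes by −0.25, −0.28 and −0.20 on the log2 scale for LPS in WT, KO and 3'F, by −0.11 and −0.14 for KO against WT resting and with LPS, and by −0.13 for KO against 3'F with LPS. DESeq2 gave 8 for KO against WT with LPS, and 12 and 7 for KO against 3'F resting and with LPS. Limma-voom gave 29 for LPS in KO, 13 and 14 for KO against WT, and 18 and 12 for KO against 3'F. Without a filter on low counts KO against 3'F resting gave 2. Fits of only the groups compared gave 2 and 8 for KO against WT and 0 and 14 for KO against 3'F. Without resting KO replicate 3 and resting 3'F replicate 3 the counts were 22 for LPS in WT, 25 in KO and 23 in 3'F, 10 and 15 for KO against WT, and 1 and 11 for KO against 3'F. In that setting LPS in WT and the comparisons of genotypes with LPS keep the same libraries. Leaving out 1 library at a time gave 9 to 12 for LPS in WT, 12 to 19 in KO and 13 to 17 in 3'F. For KO against WT it gave 0 to 7 resting, with 0 without resting WT replicate 2, and 0 to 3 with LPS. For KO against 3'F it gave 1 to 7 resting, with 1 without resting 3'F replicate 3, and 0 to 3 with LPS. The cause of these shifts was not tested. Same-numbered libraries of a genotype deviated together in 5 of 9 pairs (correlations 0.0447 to 0.299, against a limit of 0.1). Same-numbered libraries of different genotypes in the same state did so in 6 of 18 pairs (−0.232 to 0.174). All 9 correlations within a genotype were positive, and Ctse was high in KO replicate 3 of both states. Whether the numbers, or the letters that go with them, mark single mice was not settled, and the main fit did not take them to pair samples. The replicate block was fitted in different ways. LPS responses and interactions had a term for each genotype and replicate number, which pairs same-numbered resting and LPS libraries. Comparisons between genotypes had the replicate number alone as a block. The counts were 13 for LPS in WT, 15 in KO and 19 in 3'F, 6 and 3 for KO against WT, and 4 and 3 for KO against 3'F. 3'F against WT and both interactions gave 0 under every alternative run. In the shallowest library, resting 3'F replicate 3 with 4071084 counts, Ctse had 2 counts, Ctsf 21 and Atp6v0c 24.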
